A study of Homo sapiens with 2 samples.

Results

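The nuclear genes described here encode the mitochondrial ribosome, the protein import machinery and the respiratory chain, with their assembly factors. They were chosen by symbol in the platform annotation, as genes starting with MRPL, MRPS, MTIF, TIMM, TOMM, NDUF, SDH, UQCR, COX followed by a digit, ATP5 or IDH. Of 13763 named genes, 141 had such a symbol once 4 antisense symbols and 4 pseudogenes were left out. The divergent transcripts COX10-DT and NDUFA6-DT, which are long non-coding RNAs, entered no group, and the other 139 genes encode proteins. The symbol rule itself uses no measured values, but it was set with earlier results of these data known.

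RNA came from S2-013 cells, a cloned pancreatic cancer line. The cultures were S2-013 cells with HOXB7 knocked down, a rescue-HOXB7 plasmid added back and a MEK inhibitor given, and control cells with the same knockdown and plasmid but no inhibitor. HOXB7 is a homeobox transcription factor, and MEK is the kinase that activates ERK. Each condition was measured on 1 Affymetrix whole-transcript array, so no value has a replicate error and no test or p-value exists for any gene or group.

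Most mitochondrial proteins are encoded in the nucleus, made in the cytosol and taken up through the TOM complex of the outer membrane and the TIM complexes of the inner membrane. The mitochondrial ribosome translates the few core respiratory subunits that mitochondrial DNA encodes, and these join nuclear-encoded subunits in the respiratory complexes. Pancreatic cancer cells with active RAS-MEK signalling are known for altered mitochondrial metabolism.

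All values are log2 probe set values, and each difference is the log2 value with the inhibitor minus the log2 value without it. Each gene is represented by its probe set with the highest mean. The floor is 4.78, the median over named genes of the mean of both arrays, and 6882 genes had a mean at or above it. Of the 139 protein-coding members, 122 passed the floor (87.8%), and 118 of these were above it on both arrays. The other 4 passed by their mean, MRPS27 and MRPL19 through the array with the inhibitor and MRPS33 and MRPL32 through the array without it. Array medians over all probe sets were 3.46 with the inhibitor against 3.49 without it. Where a gene has several probe sets, their log2 differences typically lay 0.15 apart (the median of 415 pairs), and 95% of pairs lay within 0.51. With pairs kept by their higher value in place of their mean, that bound was 0.80. Of the members, TIMM9 and MRPL39, with 1 probe set each, had differences above 0.80. The bound compares probe sets on the same 2 arrays, so it holds no variation between cultures.

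The labelled cell type was checked by its markers. The 4 named epithelial genes KRT8, KRT18, KRT19 and EPCAM were above the floor on both arrays, at 6.33 to 11.3 with the inhibitor and 6.52 to 11.6 without it. Markers of other cells were above the floor for 1 of 3 fibroblast, 2 of 5 endothelial, 1 of 3 leukocyte and 1 of 2 acinar genes. The fibroblast and muscle marker DES read 5.38 with the inhibitor against 5.92 without it (-0.54). The endothelial marker ESAM read 5.09 with the inhibitor against 5.72 without it (-0.63), and CLDN5 read -0.06. The leukocyte marker CD68 read 8.53 with the inhibitor against 8.95 without it (-0.43), and the acinar marker CTRC 4.96 with the inhibitor against 4.66 without it (0.30). Thus 4 of these 5 detected markers were lower with the inhibitor, where 46.3% of all genes above the floor were. Of the 4 epithelial genes, 3 were also lower, with a median difference of -0.13. The other markers, among them PECAM1 (2.53 with the inhibitor against 1.88 without it) and DCN (2.13 with the inhibitor against 2.15 without it), were below the floor. Both cultures are labelled as the same cloned line, and the labels name no other cell type. The source of these marker readings was not tested. In bulk RNA, fewer cells that express a gene and less RNA per cell cannot be told apart. All 9 named members of a list of ERK feedback genes were lower with the inhibitor, with a median difference of -1.55.

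The mitochondrial genes differed little between the cultures. Their differences ran from -0.74 to 0.92, and none reached 2-fold. Of all genes above the floor, 0.494% were 2-fold or more higher and 0.988% were 2-fold or more lower. Of the 122 members, 93 differed by less than 0.32 in either direction (76.2%), against 73.8% of all genes. A value higher by 1.5-fold or more was read in 4 members, against 4.02% of all genes. A value lower by that much was read in 4 members, against 3.39% of all genes. Both counts are 3.28% of the members, so they lie near those shares. Below 0 were 65 members (53.3%), against 46.3% of all genes, and the members' median difference was -0.02, against 0.02 over all genes. The threshold of 1.5-fold corresponds to 0.58. Just inside it lay COX7C (0.61) and MRPS14 (-0.61), and just outside it MRPL27 (-0.53) and MRPL36 (0.48).

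Genes of the ribosome and of import read slightly lower than genes of the respiratory complexes. The 93 ribosome, translation initiation and import genes above the floor had a median difference of -0.06, and 55 of them were below 0. The 17 subunits and regulators of complexes III, IV and the ATP synthase had a median of 0.07, and 11 of them were above 0, where 53.7% of all genes were. The medians differed by -0.13. Within the first set, the median was -0.12 over the 21 import genes and -0.02 over the 70 ribosomal protein genes. These differences between medians were not tested.

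**Figure D1:**
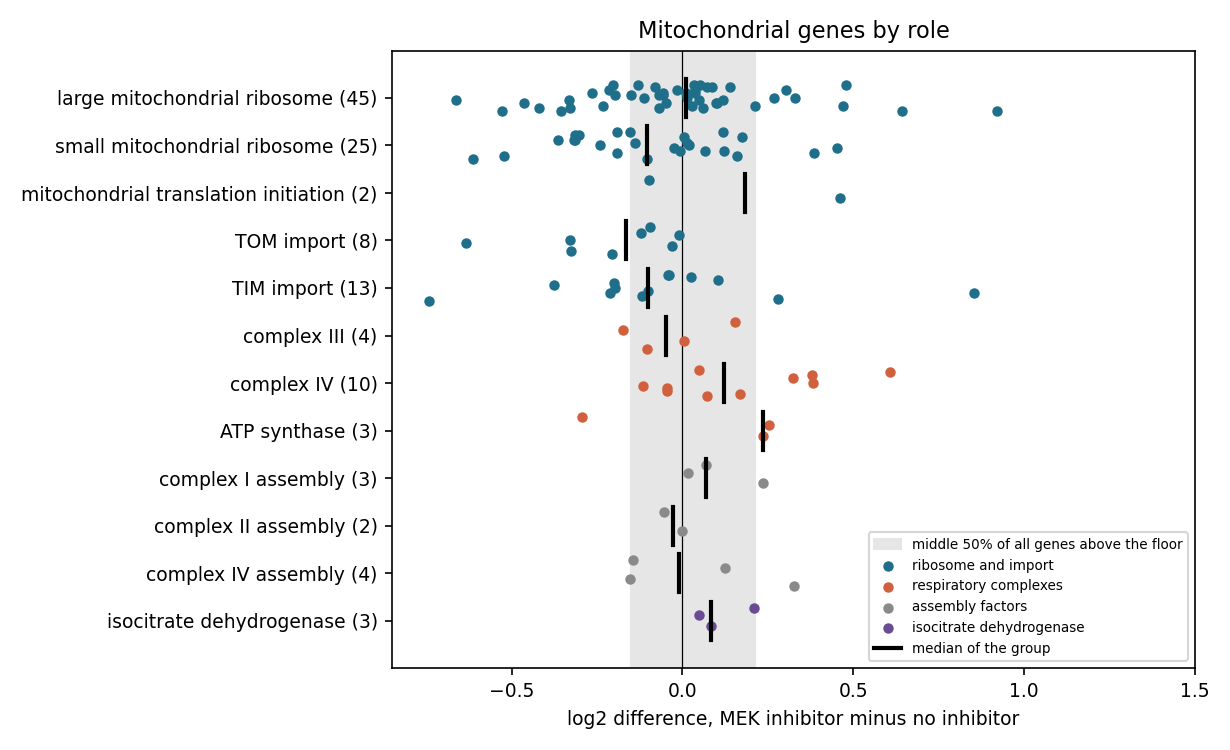
The log2 difference (inhibitor minus no inhibitor, horizontal axis) is plotted for each of the 122 members above the floor, 1 point per gene, by role. Black bars are group medians and the grey band holds the middle 50% of all genes above the floor, from -0.15 to 0.21. All 8 TOM genes lie below 0, and the lowest and highest points are TIMM17A (-0.74) and MRPL39 (0.92).

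All 8 genes with a TOM symbol above the floor read lower with the inhibitor, where 46.3% of all genes lay below 0. Among them is TOMM34 (-0.01), whose protein is cytosolic, while TOMM40L, under the floor, read 0.01. All 8 also lay below 0 after subtracting the median difference of all genes or a loess trend on level, which put 50% and 50.9% of all genes below 0. Their median difference was -0.16, and they ranged from -0.64 to -0.01. TOMM5, a small subunit that stabilises the complex, read 6.08 with the inhibitor against 6.72 without it, a difference of -0.64 (1.55-fold lower). TOMM70, the receptor for carrier precursors, read 7.38 with the inhibitor against 7.71 without it, a difference of -0.33. The small subunit gene TOMM7 read 6.02 with the inhibitor against 6.35 without it. These are the genes of the complex with the lowest differences, and they include both a receptor and small subunits.

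TOMM40, the channel of the outer membrane, read 9.73 with the inhibitor against 9.94 without it, a difference of -0.21. Its second probe set read 6.33 with the inhibitor against 6.87 without it (-0.53), so both pointed down and differed in size. The presequence receptor genes TOMM20 (-0.09) and TOMM22 (-0.03) and the small subunit gene TOMM6 (-0.12) differed by little. TOMM34, a cytosolic co-chaperone of precursors despite its symbol, read 9.38 on both arrays. Below the floor lay TOMM40L (4.71 with the inhibitor against 4.70 without it), a paralogue of the channel, and TOMM20L (2.96 with the inhibitor against 3.05 without it).

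The promoters of 4 TOM genes are shown because each holds a CCGGAAG, the core bound by ETS factors such as GABPA, an activator of many nuclear genes for mitochondria. Each window runs from 250 bases before to 50 bases after the RefSeq start in GRCh38.p14, 5′ to 3′ on the gene's strand. Capitals mark CCGGAAG or its reverse complement CTTCCGG and, in TOMM20, also the E-box CACGTG. The windows are chr3:100401040-100401339 (minus strand) for TOMM70, chr6:41787444-41787743 (plus) for TOMM6, chr1:235128788-235129087 (minus) for TOMM20 and chr22:38681707-38682006 (plus) for TOMM22.
TOMM70: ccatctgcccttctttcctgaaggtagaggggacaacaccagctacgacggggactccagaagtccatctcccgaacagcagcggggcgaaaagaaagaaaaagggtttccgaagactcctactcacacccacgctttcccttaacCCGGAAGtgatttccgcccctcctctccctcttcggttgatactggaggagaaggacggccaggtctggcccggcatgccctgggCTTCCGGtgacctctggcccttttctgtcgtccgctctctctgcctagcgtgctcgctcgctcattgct
TOMM6: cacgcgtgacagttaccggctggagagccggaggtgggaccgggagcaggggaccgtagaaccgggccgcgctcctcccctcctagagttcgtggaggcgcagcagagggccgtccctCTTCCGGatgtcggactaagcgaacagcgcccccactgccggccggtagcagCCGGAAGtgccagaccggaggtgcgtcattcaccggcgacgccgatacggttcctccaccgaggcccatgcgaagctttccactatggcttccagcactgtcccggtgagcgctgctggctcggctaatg
TOMM20: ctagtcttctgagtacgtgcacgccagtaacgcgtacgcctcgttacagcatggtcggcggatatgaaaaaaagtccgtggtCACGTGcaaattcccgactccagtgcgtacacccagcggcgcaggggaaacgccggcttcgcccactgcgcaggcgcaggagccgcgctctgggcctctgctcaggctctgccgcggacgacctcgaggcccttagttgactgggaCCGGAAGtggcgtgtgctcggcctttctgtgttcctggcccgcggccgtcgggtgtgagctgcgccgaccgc
TOMM22: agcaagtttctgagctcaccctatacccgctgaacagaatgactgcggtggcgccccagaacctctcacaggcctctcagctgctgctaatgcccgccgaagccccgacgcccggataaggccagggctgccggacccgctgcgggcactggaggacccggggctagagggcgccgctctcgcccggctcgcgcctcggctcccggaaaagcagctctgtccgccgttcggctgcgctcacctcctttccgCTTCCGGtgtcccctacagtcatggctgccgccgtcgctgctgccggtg
TOMM70 and TOMM6 hold the core on each strand. The cores of TOMM70 begin at -104 and -19 relative to the start, those of TOMM6 at -132 and -80, and the single cores of TOMM20 and TOMM22 at -22 and 2. TOMM34 also holds it, so 5 of the 9 TOM promoters in the table do (55.6%). The core was in 41.5% of all members' windows and in 20.9% of named protein-coding genes above the floor. The TOM and member shares include genes below the floor. Apart from TOMM70 (-0.33), the TOM genes with the core differed by little: TOMM6 (-0.12), TOMM20 (-0.09), TOMM22 (-0.03) and TOMM34 (-0.01). The windows of TOMM7 (-0.33) and TOMM40 (-0.21) lack the core, and TOMM5 (-0.64) had no window. A match is a run of letters and was not tested as a binding site.

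Inner membrane import genes were mixed, and held both the lowest difference of all members and the second highest. The median difference of the 13 TIM genes was -0.10, and 9 of them lay below 0, where 46.3% of all genes did. TIMM17A, a core subunit of the TIM23 presequence translocase, read 5.23 with the inhibitor against 5.97 without it, a difference of -0.74 (1.67-fold lower). Its paralogue TIMM17B read 5.73 with the inhibitor against 5.83 without it, a difference of -0.10. In the same translocase the channel gene TIMM23 (-0.20) and the receptor gene TIMM50 (-0.12) were lower, whereas TIMM44 (0.03, below 0 after the loess subtraction), which docks the import motor, and TIMM21 (0.10) were not. TIMM23 has a near-identical copy in the genome, so its probe set may read both.

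Among the small TIM chaperones, which carry hydrophobic precursors across the intermembrane space, 5 of 6 were lower, where 46.3% of all genes were. TIMM9 was the exception, at 6.23 with the inhibitor against 5.38 without it, a difference of 0.85 (1.81-fold higher). Its partner TIMM10 read 7.44 with the inhibitor against 7.48 without it, a difference of -0.04, so the genes of this chaperone hexamer had no common direction. TIMM8A, the gene of deafness-dystonia syndrome, read 5.26 with the inhibitor against 5.64 without it, a difference of -0.37. The partner of TIMM8A, TIMM13, read -0.20, while TIMM10B read -0.21 and TIMM8B -0.04. TIMM22, the pore of the carrier translocase that receives cargo from these chaperones, was higher at 8.38 with the inhibitor against 8.10 without it (0.28).

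**Figure D2:**
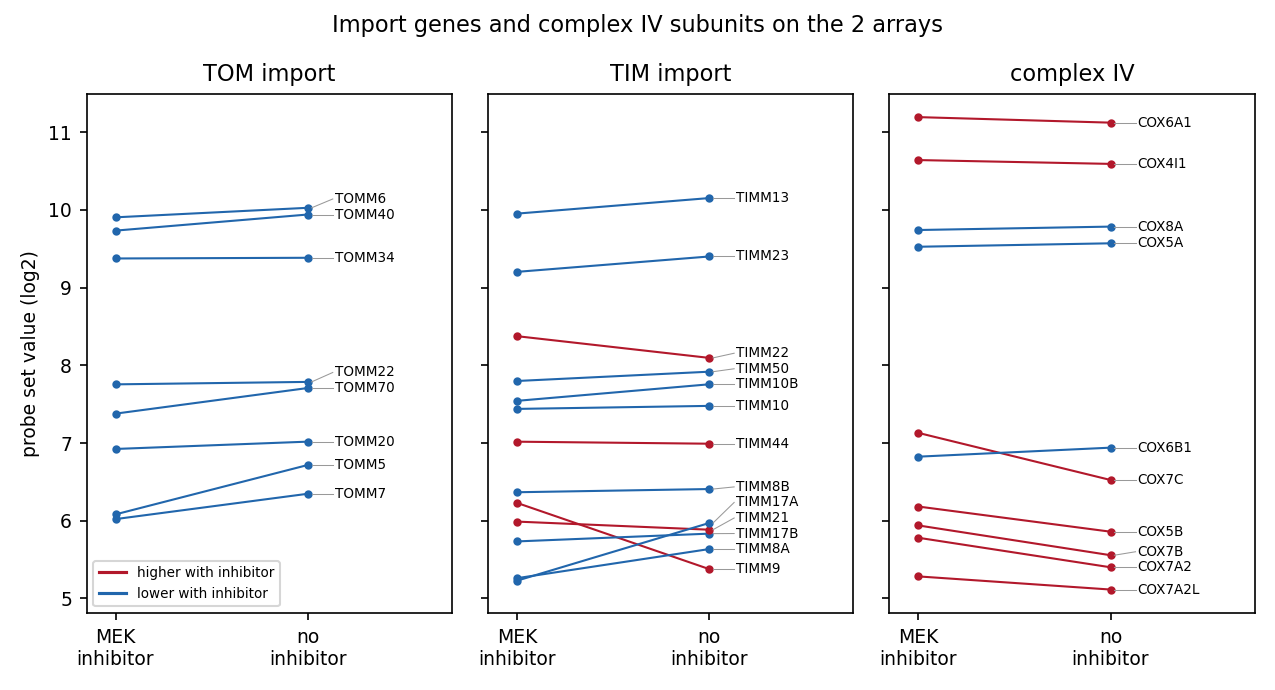
Each line joins the log2 probe set values of 1 gene on the array with the inhibitor (left) and the array without it (right). All 8 TOM lines and 9 of 13 TIM lines are lower with the inhibitor, and 7 of 10 complex IV lines are higher.

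Of 73 mitochondrial ribosomal protein genes, 70 were above the floor. The 45 large subunit genes were split evenly, with 22 lower and 23 higher and a median of 0.01, whose sign turned (-0.0136) once the median difference of all genes was subtracted. The 25 genes with a small subunit symbol had 15 lower (60%, against 46.3% of all genes) and 10 higher, with a median of -0.10. After that subtraction 18 were lower and 7 higher, where 50% of all genes lay below 0. The lower ones include MRPS30 and MRPS18A, whose proteins belong to the large subunit. MRPL39, a large subunit protein, had the highest difference of all members, at 5.79 with the inhibitor against 4.87 without it (0.92, 1.89-fold higher). MRPL49 read 7.40 with the inhibitor against 6.75 without it, a difference of 0.64. In the opposite direction MRPL50 read 5.95 with the inhibitor against 6.61 without it, a difference of -0.66 (1.58-fold lower). The proteins of MRPL39, MRPL49 and MRPL50 have no counterpart in the bacterial ribosome.

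Further large subunit genes with lower values were MRPL27 (6.09 with the inhibitor against 6.62 without it), MRPL10 (-0.47), MRPL16 (-0.42) and MRPL13 (-0.36). MRPL10 is the stalk base protein to which the L7/L12 stalk binds. Higher values were read for MRPL36 (6.90 with the inhibitor against 6.43 without it), MRPL34 (0.47), MRPL54 (0.33) and MRPL51 (0.30). MRPL58, a peptidyl-tRNA hydrolase built into the large subunit that rescues stalled ribosomes, read 8.01 with the inhibitor against 8.08 without it (-0.07). MRPL22, MRPL23 and MRPL52 were below the floor, with differences of -0.10, -0.002 and 0.18. No direction was shared by the large subunit.

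MRPS14 had the lowest difference among small subunit symbols, at 5.57 with the inhibitor against 6.18 without it (-0.61). MRPS30 read 6.35 with the inhibitor against 6.87 without it, a difference of -0.52, and MRPS18A read -0.24. Despite their symbols, the proteins of MRPS30 and MRPS18A sit in the large subunit, and without them the small subunit median was -0.02. MRPS25 (-0.36), MRPS9 (-0.32), MRPS33 (-0.32) and MRPS12 (-0.31), the last a protein of the decoding centre, were also lower. MRPS18B read 7.89 with the inhibitor against 8.19 without it (-0.30), identically in 7 probe sets, which therefore count as 1 reading.

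MRPS27, an RNA-binding protein of the small subunit, had the highest difference of its subunit, at 5.18 with the inhibitor against 4.72 without it (0.45), which is below the floor on the array without the inhibitor. MRPS2 read 5.48 with the inhibitor against 5.10 without it, a difference of 0.39, but its second probe set read 4.46 with the inhibitor against 4.75 without it (-0.29). The direction of MRPS2 is therefore undecided. MRPS16 read 0.005 and 0.04 in its 2 probe sets, and MRPL44 read 0.03 in the one above the floor.

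The translation initiation factor genes stood apart from each other. MTIF3, which helps place the start codon on the small subunit, read 5.67 with the inhibitor against 5.21 without it (0.46). MTIF2, which brings the initiator tRNA, read 7.09 with the inhibitor against 7.19 without it (-0.10).

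**Figure D3:**
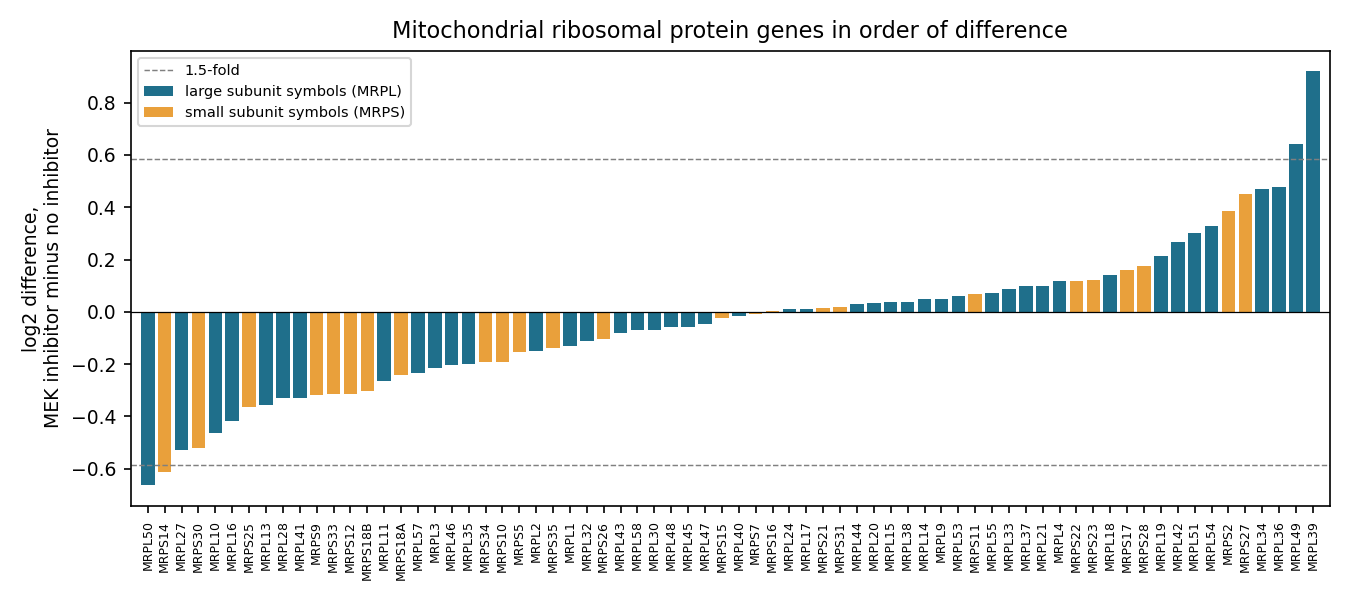
Bars give the log2 difference (inhibitor minus no inhibitor) of the 70 mitochondrial ribosomal protein genes above the floor, in order, and dashed lines mark 1.5-fold. Of the bars, 37 lie below 0 and 33 above it, 2 pass the line on each side, and large and small subunit genes are found at both ends.

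Complex IV subunits, which form cytochrome c oxidase, were mostly higher with the inhibitor. Of 10 above the floor, 7 were higher, with a median difference of 0.12, where 53.7% of all genes were above 0. COX7C, a small membrane subunit, read 7.13 with the inhibitor against 6.52 without it, a difference of 0.61 (1.52-fold higher). COX7B read 5.94 with the inhibitor against 5.56 without it, a difference of 0.38. COX7A2, the widely expressed isoform of subunit VIIa, read 5.78 with the inhibitor against 5.40 without it, also 0.38. COX7A2L, which links complexes III and IV in supercomplexes, read 0.17. All 4 genes with a COX7 symbol above the floor were thus higher, with a median of 0.38. They were singled out after their values were seen.

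The 6 complex IV subunits with other symbols had a median of 0.003. COX4I1, the regulatory subunit IV of most tissues, read 10.6 on both arrays, a difference of 0.05. COX6A1 read 11.2 with the inhibitor against 11.1 without it (0.07), and its second probe set was near the lower end of the scale, at 2.05 with the inhibitor against 2.17 without it. COX5A and COX8A each read -0.04 and COX6B1 -0.12, whereas COX5B read 6.18 with the inhibitor against 5.86 without it (0.32). All 4 complex IV subunits with a mean below the 75th percentile of genes (6.45) were higher, by 0.17 to 0.38, and the 6 at or above it ran from -0.12 to 0.61. With genes below that percentile left out, the complex IV median was 0.0027. The part of probe set level in the result was not tested.

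Isoforms known from particular tissues were below the floor on both arrays. COX4I2, the lung isoform, read 4.66 with the inhibitor against 4.63 without it. The heart and muscle isoform genes COX6A2 and COX7A1 read 4.48 and 3.30 with the inhibitor against 4.27 and 3.51 without it. The testis isoform genes COX6B2, COX7B2 and COX8C read 3.14, 2.18 and 2.16 with the inhibitor against 3.47, 2.26 and 2.14 without it. COX6C, a subunit of all tissues, was also below the floor, at 3.75 with the inhibitor against 3.86 without it, so a value under the floor does not show that a gene is silent.

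Complex III genes gave no common direction. UQCRC1 and UQCRC2 encode the core proteins. UQCRC1 read 8.26 with the inhibitor against 8.10 without it (0.15), and UQCRC2 read 10.1 on both arrays (0.01, below 0 after the median subtraction). The hinge protein gene UQCRH (-0.17) and its intronless copy UQCRHL (-0.10) were lower, but their sequences are nearly identical and their probe sets may read each other's transcript. UQCRB, below the floor, read 4.07 with the inhibitor against 4.43 without it.

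Of the ATP synthase genes, ATP5MK read 7.64 with the inhibitor against 7.39 without it (0.25) and ATP5MJ read 6.51 with the inhibitor against 6.27 without it (0.24). Both encode small membrane subunits. ATP5IF1, the inhibitor that stops the enzyme from hydrolysing ATP, had the opposite sign, at 5.76 with the inhibitor against 6.05 without it (-0.29). Subunits of complexes I and II, most ATP synthase subunits, IDH1 and IDH2 were not analysed here.

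Assembly factors had a median of 0.01 over 9 genes. The complex I factors NDUFAF8 (0.24), NDUFAF7 (0.07), a methyltransferase, and TIMMDC1 (0.01) were not lower, although TIMMDC1 lay below 0 after the median or the loess subtraction. For complex II, SDHAF2, which attaches the flavin, read 6.78 on both arrays, and SDHAF1, which helps insert iron-sulfur clusters, read -0.05. SDHAF3 (-0.12) and SDHAF4 (0.55) were below the floor, and SDHAF4 read 3.55 with the inhibitor against 2.99 without it. COX20, a chaperone of the mitochondrially encoded subunit COX2, read 7.64 with the inhibitor against 7.31 without it (0.33). COX19 (0.12), COX11 (-0.14) and COX18 (-0.15) were above the floor, and the copper chaperone gene COX17 (-0.44) and COX14 (0.05) below it.

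The 3 genes of the NAD-dependent isocitrate dehydrogenase of the tricarboxylic acid cycle were all slightly higher. Of all genes above the floor, 53.7% were above 0. The catalytic subunit gene IDH3A read 5.72 with the inhibitor against 5.51 without it (0.21), and IDH3B (0.08) and IDH3G (0.05) encode the other subunits. The divergent transcripts, which share a symbol stem with a respiratory gene only by position, read 0.003 (COX10-DT) and -0.25 (NDUFA6-DT).

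Promoter windows of 300 bases were found in the RefSeq table for 123 of the 139 members. Short motifs of factors known to act on mitochondrial genes were searched on both strands. The ETS core CCGGAAG was in 41.5% of members' windows, against 20.9% of 5491 named protein-coding genes above the floor and 14.2% of 15842 protein-coding windows. The YY1 core AAGATGG was in 22.8% of members, against 8.52% of the named genes and 6.40% of all windows. It can overlap the start codon where the start of translation lies near the transcription start. For the NRF1 core GCATGCG, whose matches can overlap each other on opposite strands, the shares were 11.4% of members, 6.77% of the named genes and 5.14% of all windows. For the E-box CACGTG, bound by MYC, they were 7.32% of members, 10.6% of the named genes and 8.88% of all windows.

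**Figure D4:**
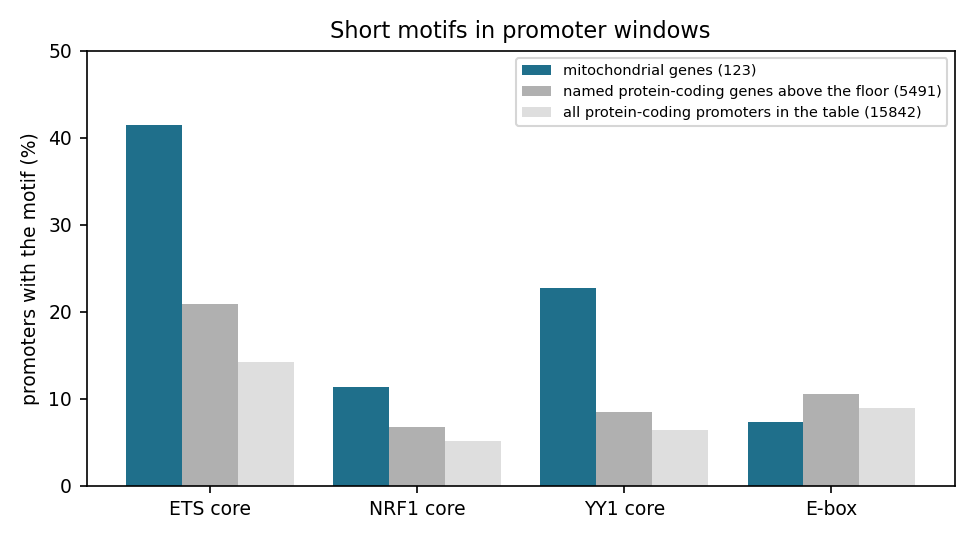
Bars give the percentage of 300-base promoter windows that hold each motif on either strand, for the mitochondrial genes, the named protein-coding genes above the floor and all protein-coding promoters. The mitochondrial genes stand above both sets for the ETS, NRF1 and YY1 cores and below both for the E-box.

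Direction and motif can be set side by side for the 111 members with both a window and a value above the floor. The ETS core was in 30 of 57 windows of lower members and in 18 of 54 windows of higher members. Members with it had a median difference of -0.05, and the 63 members without it 0.03. Over all 5491 genes the medians were 0.01 with the core and 0.03 without it. For the YY1 core the members' medians were -0.05 with it and 0.005 without it. These values are a description, with no test.

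Windows of members at both ends of the range are shown for comparison with the TOM promoters. Capitals mark AAGATGG or its reverse complement CCATCTT in TIMM17A, MRPL50 and COX7C, and overlapping GCATGCG and CGCATGC in TIMM9. The windows are chr1:201955253-201955552 (plus strand) for TIMM17A, chr9:101398569-101398868 (minus) for MRPL50, chr5:86617691-86617990 (plus) for COX7C and chr14:58427482-58427781 (minus) for TIMM9.
TIMM17A: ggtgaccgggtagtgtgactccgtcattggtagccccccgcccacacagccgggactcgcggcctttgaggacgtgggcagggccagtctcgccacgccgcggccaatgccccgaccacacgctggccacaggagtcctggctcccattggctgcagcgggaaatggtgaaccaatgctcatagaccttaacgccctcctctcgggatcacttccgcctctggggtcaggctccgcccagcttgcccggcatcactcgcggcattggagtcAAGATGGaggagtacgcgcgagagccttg
MRPL50: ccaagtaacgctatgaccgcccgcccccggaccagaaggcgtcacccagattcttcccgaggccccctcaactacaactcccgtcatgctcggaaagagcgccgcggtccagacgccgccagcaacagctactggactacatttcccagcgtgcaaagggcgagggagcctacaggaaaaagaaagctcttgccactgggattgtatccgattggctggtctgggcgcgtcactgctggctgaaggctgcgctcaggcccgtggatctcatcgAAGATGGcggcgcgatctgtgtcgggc
COX7C: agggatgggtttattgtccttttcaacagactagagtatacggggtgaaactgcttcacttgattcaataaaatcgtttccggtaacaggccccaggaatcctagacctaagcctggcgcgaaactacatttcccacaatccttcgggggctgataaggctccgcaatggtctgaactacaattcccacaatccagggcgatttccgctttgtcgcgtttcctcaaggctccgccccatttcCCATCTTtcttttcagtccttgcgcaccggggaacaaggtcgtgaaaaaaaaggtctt
TIMM9: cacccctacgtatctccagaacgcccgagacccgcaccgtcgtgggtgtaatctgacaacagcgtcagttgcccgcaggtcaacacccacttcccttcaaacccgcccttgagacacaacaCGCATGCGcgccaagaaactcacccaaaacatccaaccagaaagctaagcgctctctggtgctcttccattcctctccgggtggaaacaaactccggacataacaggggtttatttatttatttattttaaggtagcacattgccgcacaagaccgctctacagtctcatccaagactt
TIMM17A and MRPL50, both lower, hold the YY1 core just after the start, at 22 and 24, while COX7C, which was higher, holds it on the other strand at -8. MRPL49, also higher, holds it on the same strand as TIMM17A and MRPL50, at -68, so strand did not separate the higher from the lower of these genes. The NRF1 cores of TIMM9 begin at -129 and -128. The windows of MRPS14 and MRPL39 hold none of the 4 motifs, so these members at the ends of the range share no motif searched here.

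A head-to-head neighbour, a protein-coding gene starting on the opposite strand within 1000 bases upstream, was found for 31 of the 123 members (25.2%), against 15.6% of the 5491 genes. In 15 such pairs both genes were above the floor, and in 6 of them the differences had the same sign, against 9 with opposite signs. MRPL49 and its neighbour FAU, which encodes a cytosolic ribosomal protein fused to a ubiquitin-like protein, were both higher (0.64 and 0.34, starts 49 bases apart). MRPS27 and PTCD2 were too (0.45 and 0.38). Opposite signs were read for TIMM9 and KIAA0586 (0.85 and -0.43), for MRPL27 and EME1 (-0.53 and 0.57), and for ATP5MK and PDCD11 (0.25 and -0.44). The ribosomal pair MRPL46 and MRPS11, which share an upstream region of 320 bases, read -0.20 and 0.07.

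Other genes of mitochondria, taken from lists by function, are given beside the shares over all genes above the floor, of which 53.7% were above 0, 46.3% below 0, 4.02% higher by 1.5-fold or more and 3.39% lower by 1.5-fold or more. Of 8 import partners, 5 were higher, with a median of 0.03, and 1 was lower by 1.5-fold or more. This was HSPD1, the matrix chaperonin that folds imported proteins, at 9.63 with the inhibitor against 10.3 without it (-0.70). The import motor chaperone HSPA9 read -0.14, the processing peptidase subunits PMPCA and PMPCB 0.02 and 0.03, the intermediate peptidase MIPEP -0.29 and the outer membrane assembly gene MTX1 0.21. Of 17 translation factors and ribosome assembly genes, 10 were lower and none passed 1.5-fold, with a median of -0.03. The ribosome recycling factor gene MRRF (0.47), SLIRP (0.38), an RNA-stabilising protein, and MTERF4 (0.28), which acts in ribosome assembly, had the largest differences.

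Among 6 regulators of mitochondrial DNA expression and biogenesis the median was -0.08. MYC, which promotes mitochondrial biogenesis, read 7.36 with the inhibitor against 7.72 without it (-0.35), the DNA helicase gene TWNK -0.27 and the RNA polymerase gene POLRMT -0.17. NRF1 (0.02) and YY1 (0.03), whose motifs were searched above, read nearly the same on both arrays. The 18 respiratory partners and assembly factors with other symbols were split 9 to 9, with a median of -0.005. BCS1L, an assembly ATPase of complex III, had a difference of -0.43, ETFDH, which feeds electrons into ubiquinone, 0.39 and COA3, an assembly factor of complex IV, 0.38.

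Of 10 genes of the tricarboxylic acid cycle and pyruvate entry, 8 were higher, where 53.7% of all genes were, with a median of 0.11. Of these, 2 were higher by 1.5-fold or more, against 4.02% of all genes. MPC2, a subunit of the mitochondrial pyruvate carrier, read 8.90 with the inhibitor against 8.10 without it (0.80). Its partner MPC1 read -0.09. PDHA1, the catalytic subunit of pyruvate dehydrogenase, read 6.11 with the inhibitor against 5.36 without it (0.75), and OGDH read 0.32. Of 16 genes of mitochondrial dynamics and cristae, 10 were lower, where 46.3% of all genes were, with a median of -0.06, and 1 was higher by 1.5-fold or more. BNIP3, a receptor for removal of mitochondria by autophagy, read 8.42 with the inhibitor against 7.05 without it (1.37). The cristae protein gene APOOL (0.58) and the protease gene OMA1 (0.57) came next, just under 1.5-fold. None of these lists was tested.

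**Figure D5:**
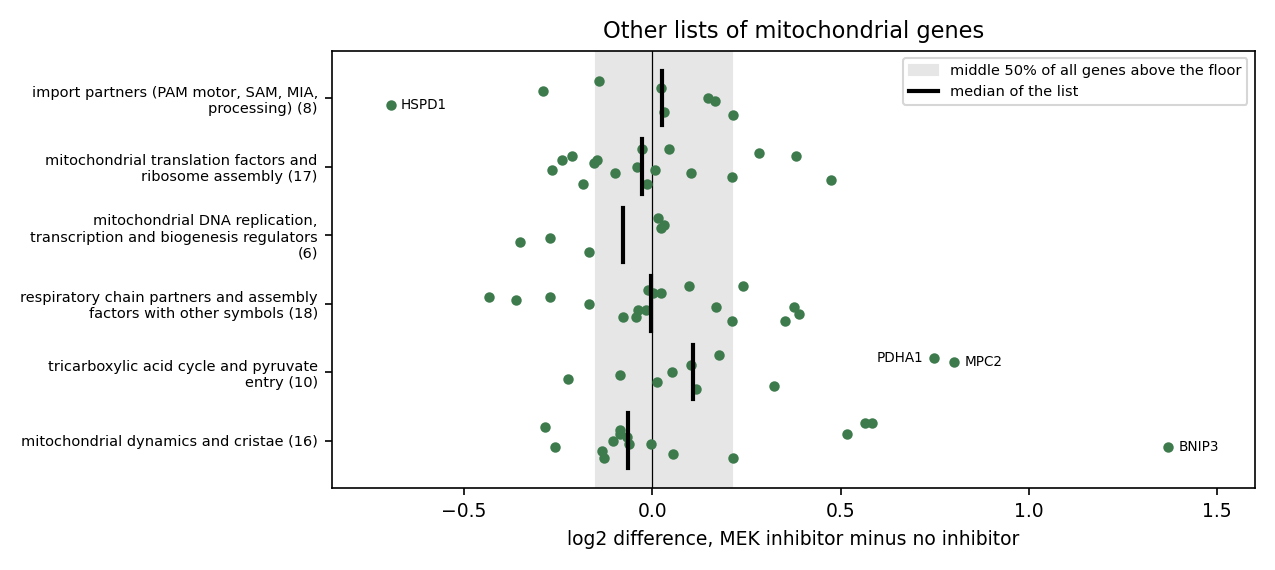
Points give the log2 difference (inhibitor minus no inhibitor) of each gene above the floor in 6 further lists of mitochondrial genes, black bars the list medians and the grey band the middle 50% of all genes above the floor. HSPD1 (lower) and PDHA1, MPC2 and BNIP3 (higher) are the genes past 1.5-fold.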

How the data were processed

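Per the labels' protocols, 100 ng of total RNA per sample was labelled with the GeneChip WT PLUS kit. The authors deposited 1 value per probe set and array, which is taken as log2 from its range, 1.16 to 13.4. Affymetrix Expression Console 1.3 is named in the submitters' processing notes. The settings of its summarisation and the genome build are not stated in the sources used here. Quantiles of both arrays were close to equal, so values were used as deposited, and a difference in total RNA output cannot be read from them.

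Of 53617 probe sets, 16098 carry 1 gene symbol in the platform annotation, and 1287 of small RNAs were kept apart. The floor was set on the mean of both arrays, so a gene can pass while below it on 1 array. Pseudogenes were recognised by RefSeq biotype. With 1 array per group there was no test. The number of arrays limits the precision. Members, lists and thresholds were chosen with earlier results of these data known. Named genes were the members past 1.5-fold, the 2 highest and 2 lowest of each role group, all isocitrate dehydrogenase and SDHAF genes, members whose probe sets disagree, tissue isoforms and the 3 genes with the largest difference of each list. Further members and list genes were named after their values were seen. Lists of mitochondrial aminoacyl-tRNA synthetases, mitochondrially encoded subunits and muscle markers gave no value here. Promoters are from RefSeq (GRCh38.p14). Counting and medians were tested on shuffled gene differences of these arrays, clipped and centred, with known shifts added. Python 3.11.15, numpy 2.4.6, pandas 2.3.3, statsmodels 0.14.6 and matplotlib 3.10.9 were used.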

Additional observations from a re-analysis of the deposited data

How the results depend on the processing

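No paired analysis was possible because there is only 1 array in each group, and no array could be left out. Of 129 recomputed values, 111 kept their sign and moved by under 0.1 on the log2 scale (counts by under 1.5 times). Many of the 129 could move little or not at all. The floor on the higher value changed none of the values it was run on. Subtracting the median difference shifts each median by only 0.02, and averaging probe sets can change only groups with a gene that has several. The gap between ribosome and import genes and respiratory genes stayed below 0 in all settings run, from -0.18 to -0.07. The median subtraction could not change this gap, which stayed at -0.13. The TOM median stayed between -0.22 and -0.11. The large subunit median, 0.01, turned to -0.0136 with the median difference subtracted, -0.0376 with a loess trend subtracted, -0.0159 with averaged probe sets and with MRPS30 and MRPS18A counted in the large subunit (which left -0.024 for the small subunit, against -0.10), and -0.0025 without MRPL39. Its direction is therefore undecided. The complex III median turned to 0.00545 both with the floor at the 75th percentile and without UQCRH. That floor gave 0.0027 for complex IV and 0.33 for the complex IV assembly factors, whose median was -0.14 without COX20. It leaves fewer genes: 37 members lower, 31 higher, 2 past 1.5-fold upwards and 0 downwards. At a threshold of 0.32 on the log2 scale 14 members were higher and 15 lower, where 15.1% and 11.2% of all genes were, and at 2-fold 0 and 0. The causes of the other moves were not tested. The settings that move MRPS30 and MRPS18A, leave out ATP5IF1, UQCRHL and COX7A2L or add the divergent transcripts were chosen after seeing the data. No detection calls were used, so the values of dim probe sets are uncertain.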
